A study of Mus musculus with 2 samples.

Results

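Periostin (Postn), tenascin C (Tnc), SPARC (Sparc), SPARC-like 1 (Sparcl1), thrombospondins 1 and 2 (Thbs1, Thbs2), Cthrc1, Smoc1 and fibronectin (Fn1) are secreted proteins of the extracellular matrix. These 9 genes were taken by symbol from the 18193 genes on an expression array of mouse heart cells. Each of the 16 probe sets annotated to exactly 1 of them was read on both arrays, out of 45101 probe sets in all. Matricellular proteins sit in the matrix without building its fibres, and they change how cells attach to collagen and fibronectin and how growth factors reach them. In the embryonic heart such proteins mark the endocardial cushions, the swellings of matrix and mesenchyme that later form valves and septa. Cushion mesenchyme arises from endocardial cells that leave their epithelial sheet. Fibronectin is a structural adhesion protein rather than a classical matricellular one, and it is treated here with its partners.

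The mutant array held cells of hearts labelled Tie2Cre;Tbx20 loxP/-, with 1 floxed and 1 null allele of the T-box transcription factor gene Tbx20. The control array held cells of Tie2Cre;Tbx20 +/loxP hearts, with 1 wild-type and 1 floxed allele. Both genotypes carry the Tie2Cre transgene, which recombines floxed alleles in endothelial and endocardial cells, in their mesenchymal descendants and in blood cells. Hearts were taken at embryonic day 12.5 and a cell sorter was set to take live lineage cells without CD41, CD45 or Ter119, which mark blood cells. The null allele of the mutant is not limited to the lineage. Whether a preparation pooled several embryos is not given in the sources used here. With 1 array per genotype there was no replicate check, no p-value could be had, and genotype and preparation cannot be told apart. All values below compare these 2 arrays.

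Endothelial and endocardial markers were present on both arrays, with 12 of 12 above the floor, beside 10665 of all 18193 genes. Myocardial markers (10 of 10) and cushion mesenchyme markers (9 of 9) passed it too, so passing does not identify the sorted cells. The floor, below which a signal was not read as a level, was each array's median, 82.4 in the mutant and 91.3 in the control. A gene above it on both arrays counted as measured, which 10665 genes were, and across them the log2 ratio, mutant over control, had a median of -0.0070 and an SD of 0.38. The 3 probe sets of Tbx20 itself had log2 ratios of -0.25, -0.22 and -0.73. The labels do not say which exons are floxed, so these probe sets may not report the deletion.

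All 9 matricellular genes were measured, and all 9 read lower in the mutant array than in the control array, or 8 of 9 after quantile normalization, where Sparc stood at 0.029. The share of all measured genes that read lower was 51.0%. The median log2 ratio over the 9 was -0.73, and the range ran from -1.74 for Sparcl1 to -0.19 for Sparc. Of the 9 genes, 3 were at least 2-fold lower in the mutant, namely Sparcl1, Thbs1 and Thbs2, against 1.46% of all measured genes. The count was 2 of 9 with a pseudocount of the array median, where Thbs2 stood at -0.85. It was 1 of 7 with the floor at the 75th percentile, where Sparcl1 and Thbs2 were not measured. Over all genes the count was 105 of 18193 with that pseudocount and 34 of 6247 with that floor. None of the 9 was at least 2-fold higher, against 0.647% of all measured genes. At the probe set level, 13 of the 16 passed the floor on each array, and all 13 of these read lower in the mutant. The remaining 3, for Tnc, Sparc and Thbs2, lay under the floor on both arrays and carry no level.

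**Figure D1:**
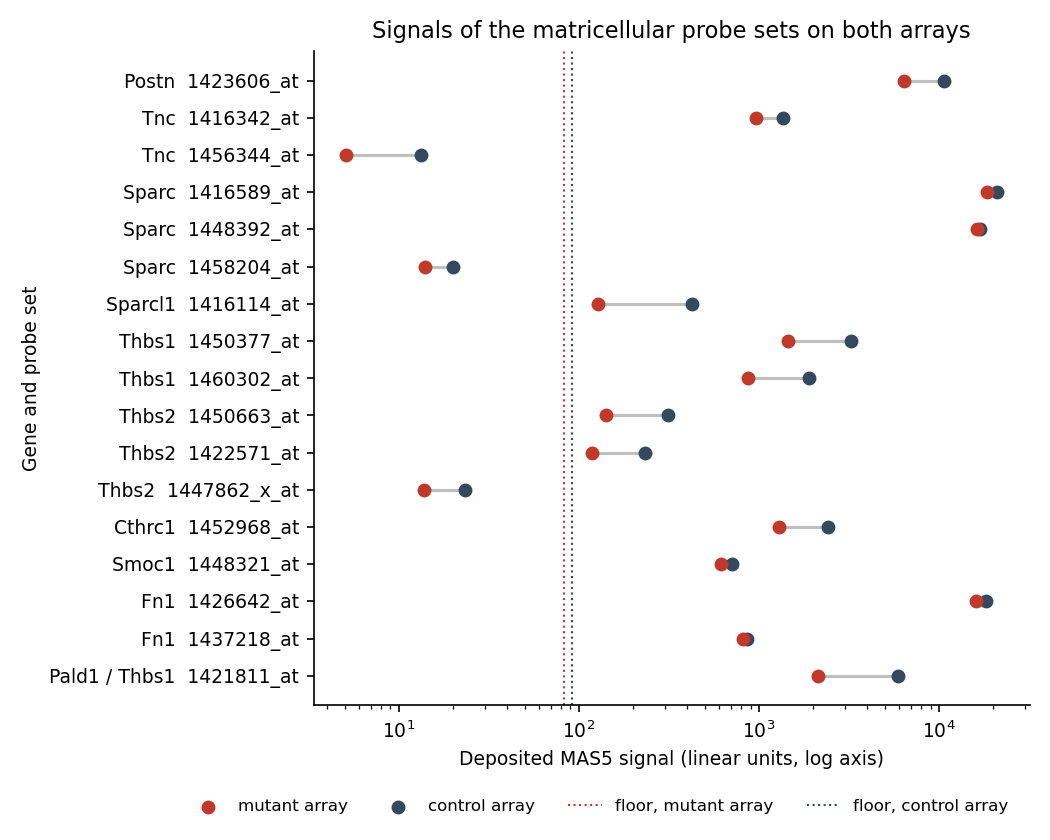
Deposited MAS5 signal on a log axis for each probe set of the 9 genes and for the probe set shared by Pald1 and Thbs1, with the mutant array in red, the control array in blue and each array's floor as a dotted line. Above the floor, the gaps are wide for Sparcl1, Thbs1, Thbs2, Cthrc1 and the shared probe set, while the points of Sparc and Fn1 nearly coincide; levels of different probe sets are not on a common scale.

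Thrombospondins 1 and 2 are trimeric glycoproteins that bind CD36 and CD47 and restrain the growth of vessels, and thrombospondin 1 also activates latent TGF-beta. Thbs1 had signals of 1457 in the mutant and 3252 in the control on its brighter probe set, 1450377_at. The second Thbs1 probe set, 1460302_at, read 876 in the mutant and 1901 in the control. Both readings were a little over 2-fold lower in the mutant, and their log2 ratios of -1.16 and -1.12 differed by much less than probe sets of 1 gene usually do. That usual spread, called probe error here, had an SD of 0.31 for genes with a mean signal over 1000 and 0.39 for those from 200 to 1000. It was pooled over genes with several measured probe sets, so it describes these 2 RNA preparations and not the spread between embryos.

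Thbs2 read 142 in the mutant and 313 in the control on probe set 1450663_at. Its other measured probe set, 1422571_at, read 119 in the mutant and 233 in the control. The log2 ratios were -1.14 and -0.97 (SD 0.12 over both probe sets), so only the brighter probe set passed 2-fold. The Thbs2 signals in the mutant lay close to the floor of 82.4. Thbs1 and Thbs2, which share their domain plan, differed in log2 ratio by -0.017, within the probe error of such a difference (SD 0.50).

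One more probe set, 1421811_at, is annotated to both Thbs1 and Pald1 and was left out of the gene values. It read 2137 in the mutant and 5908 in the control, a log2 ratio of -1.47. It moved the same way as the Thbs1 probe sets, and which of the genes it reads was not tested. Of the 10665 measured genes, 84 had a lower ratio than Thbs1 and 93 a lower ratio than Thbs2. In the class of genes with a signal over 1000, to which Thbs1 belongs, 0.621% were at least 2-fold lower. In the class from 200 to 1000, to which Thbs2 and Sparcl1 belong, this share was 1.37%.

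**Figure D2:**
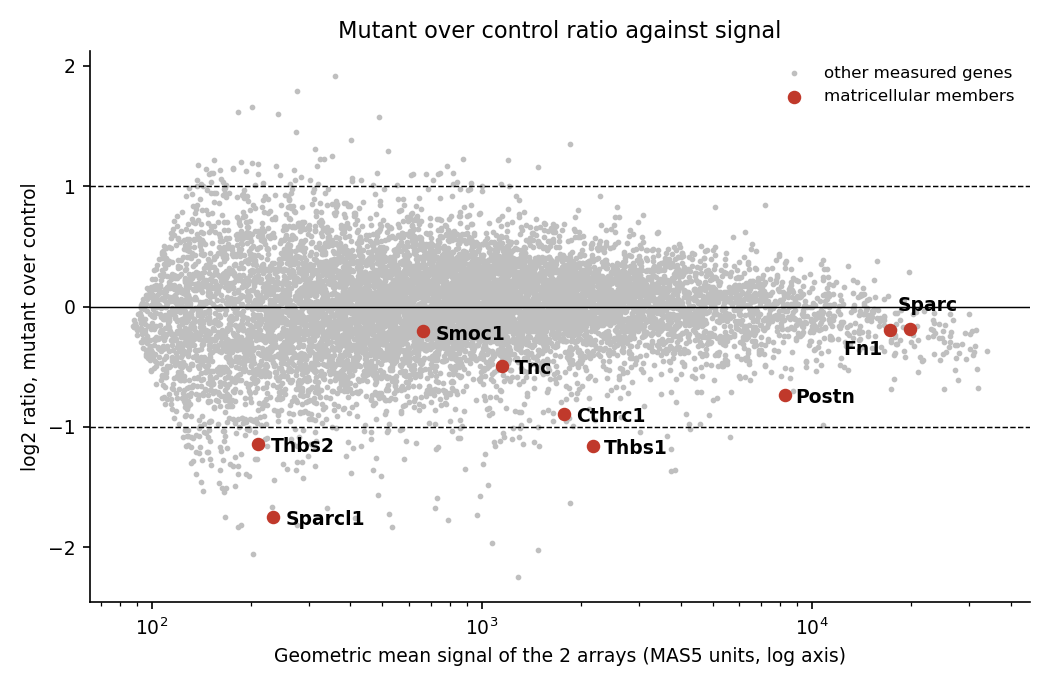
Log2 ratio of mutant over control against the geometric mean signal of the 2 arrays (log axis) for all 10665 measured genes in grey, with the 9 matricellular genes in red and dashed lines at 2-fold. All 9 red points lie under 0 as deposited (Sparc at 0.029 after quantile normalization); Sparcl1, Thbs1 and Thbs2 lie under the lower dashed line, while Smoc1, Fn1 and Sparc lie within the grey cloud.

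The SPARC family was split. SPARC is a collagen-binding glycoprotein made in most remodelling tissues, and SPARC-like 1, also called hevin, is its close relative and loosens cell adhesion. Sparcl1 read 128 in the mutant and 427 in the control, 3.35-fold lower in the mutant and the lowest ratio of the 9 genes. Only 11 measured genes had a lower ratio. Sparcl1 rests on 1 probe set, and its mutant signal was not far above the floor.

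Sparc read 18532 in the mutant and 21121 in the control on probe set 1416589_at, and 16293 in the mutant and 16888 in the control on probe set 1448392_at. The mutant signals were 87.7% and 96.5% of the control signals. The mean log2 ratio of -0.12 (SD 0.097 over both probe sets) was smaller than the probe error of its class. After quantile normalization the Sparc ratio was 0.029, so its direction was not fixed. Sparcl1 minus Sparc came to -1.56 on the log2 scale, against a probe error of 0.50 for such a difference. Smoc1, a SPARC-related protein known in frog embryos as an inhibitor of BMP signalling, read 616 in the mutant and 711 in the control. Its log2 ratio of -0.21 was also within the probe error of 0.39.

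Periostin binds collagen, fibronectin and integrins and is known for the maturation of cushion mesenchyme into fibrous valve tissue. Postn read 6431 in the mutant and 10686 in the control, so the mutant signal was 60.2% of control. Its log2 ratio was -0.73, and 402 measured genes were lower. Tenascin C, which weakens adhesion to fibronectin and is bound by periostin, read 970 in the mutant and 1366 in the control, a log2 ratio of -0.49. Cthrc1, a secreted protein that limits collagen deposition, read 1301 in the mutant and 2410 in the control. At 1.85-fold it came just under the 2-fold limit, with 226 measured genes lower. Each of Postn, Tnc and Cthrc1 rests on 1 measured probe set, and their log2 ratios came to -2.35, -1.58 and -2.85 times the probe error of 0.31.

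Fibronectin carries the main binding site for the integrin of alpha 5 and beta 1 subunits. Fn1 read 16041 in the mutant and 18405 in the control on probe set 1426642_at. Its second probe set, 1437218_at, read 813 in the mutant and 857 in the control. The log2 ratios of -0.20 and -0.075 were within the probe error, and after quantile normalization Fn1 stood at -0.014. Postn minus Fn1 was -0.53, with a probe error of 0.44 for the difference. In order of log2 ratio from the lowest, the genes were Sparcl1, Thbs1, Thbs2, Cthrc1, Postn, Tnc, Smoc1, Fn1 and Sparc. Of the 8 pairs of neighbours in this order, 7 did not differ beyond the probe error of a difference, and the exception was Sparcl1 with Thbs1, 0.59 apart. Smoc1, Fn1 and Sparc each lay within probe error of 0.

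Promoter sequence from RefSeq (GRCm38.p6) was at hand for 4 of the 9 genes, Postn, Tnc, Sparc and Thbs2, in 6 windows of 300 bases, each from 250 bases before a transcript start to 50 after it. The windows below are those of lower-reading members that hold a searched motif, and 1 is printed per gene. Capitals mark the motif. Postn (chr3:54360857-54361156, plus strand) and Tnc (chr4:64046887-64047186, minus strand) hold TATATAA, a form of the TATA box. Thbs2 (chr17:14694213-14694512, minus strand) holds GTGTGA on the opposite strand, printed as TCACAC. The searched form is the 3' end of the T-box factor motif AGGTGTGA.
Postn: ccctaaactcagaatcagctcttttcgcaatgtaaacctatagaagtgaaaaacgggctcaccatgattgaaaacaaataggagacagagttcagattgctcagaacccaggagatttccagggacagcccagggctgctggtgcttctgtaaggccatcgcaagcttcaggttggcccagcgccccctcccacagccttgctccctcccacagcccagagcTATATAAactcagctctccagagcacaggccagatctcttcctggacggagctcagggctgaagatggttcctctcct
Tnc: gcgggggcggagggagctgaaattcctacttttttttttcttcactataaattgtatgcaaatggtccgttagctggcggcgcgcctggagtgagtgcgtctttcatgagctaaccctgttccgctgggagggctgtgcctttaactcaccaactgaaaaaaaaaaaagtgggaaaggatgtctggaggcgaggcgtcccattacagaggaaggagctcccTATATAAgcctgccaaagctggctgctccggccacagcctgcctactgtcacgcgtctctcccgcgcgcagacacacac
Thbs2: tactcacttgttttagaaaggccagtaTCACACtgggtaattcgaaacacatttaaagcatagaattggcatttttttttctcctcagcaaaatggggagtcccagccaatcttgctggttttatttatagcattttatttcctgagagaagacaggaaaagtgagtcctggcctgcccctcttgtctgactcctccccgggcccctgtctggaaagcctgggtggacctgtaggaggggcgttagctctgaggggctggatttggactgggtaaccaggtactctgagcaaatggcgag

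In Postn the TATATAA motif began at position -28 and in Tnc at position -29, counted from the start. Both strands were searched, and the motif occurred in 3.24% of all 32851 windows. The choice of TATATAA and GTGTGA was made after these sequences were seen. GTGTGA began at position -223 in Thbs2, and the other Tnc window held it as well, at position -195. It occurred in 14.5% of all windows. The full AGGTGTGA, which contains GTGTGA, was in none of the 6 windows and in 1.28% of all windows. The Sparc window and the other Postn window held none of the motifs. A match of letters is a description of the sequence and shows no binding.

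Other matricellular genes, a list of 20 relatives of which 19 are on the array, were measured in 7 cases. All 7 read lower in the mutant, with a median log2 ratio of -0.43, beside 51.0% lower and -0.0070 over all measured genes. Comp, the fifth thrombospondin and a cartilage and tendon protein, read 191 in the mutant and 405 in the control, a log2 ratio of -1.08. Ccn1, an integrin-binding protein of early response, was at -0.54, and its 4 measured probe sets reached up to 0.040. Tgfbi, the closest relative of periostin, read 6088 in the mutant and 8506 in the control, and its 4 measured probe sets ran from -0.73 to -0.0090. Ccn2, also called connective tissue growth factor, read 5409 in the mutant and 7278 in the control.

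Another 4 genes of this list were above the floor on 1 array only, and these are named after their values were seen. Spock1 read 182 in the mutant and 90.4 in the control. Smoc2 read 109 in the mutant and 86.7 in the control, and Thbs4 87.2 in the mutant and 84.1 in the control. Ccn5 read 14.8 in the mutant and 95.6 in the control. Spock1, Smoc2 and Thbs4 were above the floor in the mutant alone, but the floors differed, 82.4 in the mutant and 91.3 in the control. The control signals of all of these lay above the mutant floor. Passing on 1 array is therefore not read as a difference here. The remaining 8 were under the floor on both arrays. With the floor at the 25th percentile, 13 of the relatives were measured and their median was -0.069.

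Receptors for these proteins went both ways. Of 13 measured integrin subunits and other receptors, 8 read lower and 5 higher, beside 51.0% lower over all measured genes. The middle log2 ratio was -0.073. Itgb3, the integrin subunit beta 3 that pairs with alpha v to bind periostin, read 99.6 in the mutant and 283 in the control, a log2 ratio of -1.51, with the mutant signal close to the floor. Lrp1, an endocytic receptor that clears thrombospondins, was at -0.63. Itga8 was at -0.37, and its 2 measured probe sets ran from -0.99 to -0.37. Itga4 was at 0.47, and its 4 measured probe sets ran from 0.0012 to 0.48.

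Among 10 collagen chains and processing enzymes that these proteins bind or act with, 9 read lower and 1 higher. These counts were 8 and 2 after loess or quantile normalization. The median was -0.26 as deposited, beside 51.0% lower and a median of -0.0070 over all measured genes. Col6a3 read 316 in the mutant and 677 in the control (log2 ratio -1.10), and Col6a1 read 919 in the mutant and 1852 in the control (-1.01). Col5a2 was at -0.44 and Col6a2 at -0.39. The 2 measured probe sets ran from -0.44 to -0.13 for Col5a2 and from -0.39 to -0.21 for Col6a2. The rest of the list, named after its values were seen, lay within the probe error of each gene's signal class. Col1a1 was at -0.11, Col1a2 at 0.059, Col3a1 at -0.071 and Col5a1 at -0.24. Bmp1 was at -0.27 and Lox at -0.26.

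**Figure D3:**
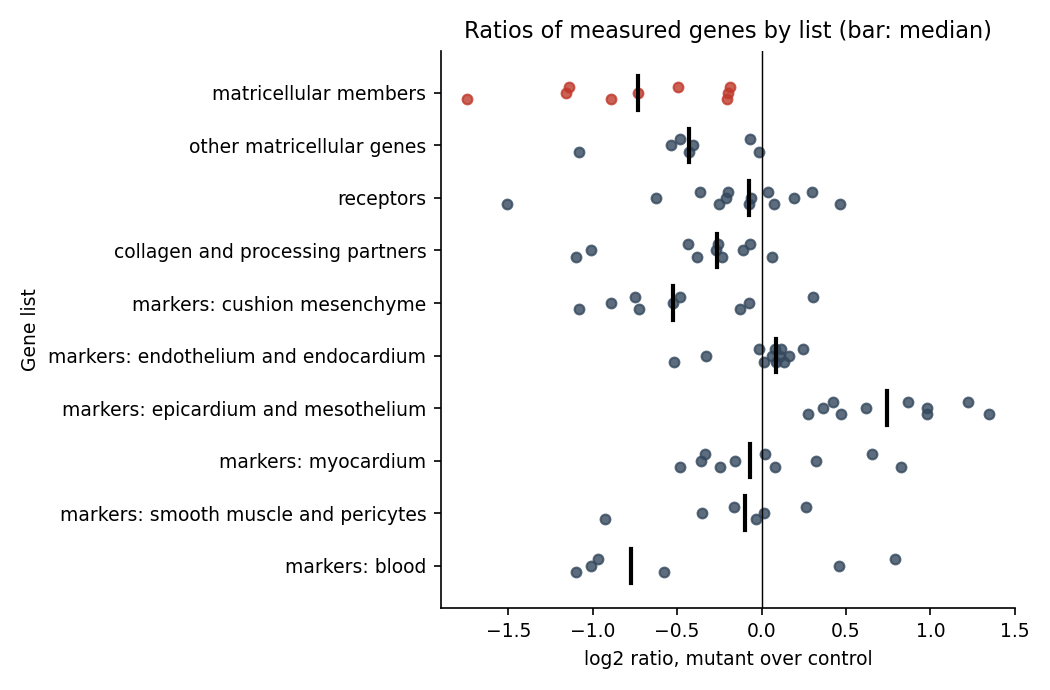
Log2 ratio of mutant over control for each measured gene (points) in the 9 matricellular genes (red) and in 9 other gene lists (blue), with the median of each list as a bar. The medians are -0.73 for the matricellular genes, -0.52 for cushion mesenchyme markers, 0.084 for endothelial and endocardial markers and 0.74 for epicardial and mesothelial markers.

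Markers of several cell types moved on the same arrays. Their counts are to be read beside the 51.0% of all measured genes that read lower, with a median of -0.0070. Of 9 cushion mesenchyme markers, 8 read lower in the mutant, with a median log2 ratio of -0.52. Their summed signal was 12543 in the mutant and 18764 in the control. Among them Snai2, an EMT factor, read 3047 in the mutant and 5643 in the control, and Twist1 read 3101 in the mutant and 4458 in the control. In a bulk sample fewer cells of a type and less RNA per cell cannot be told apart.

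Endothelial and endocardial markers had a median of 0.084, with 3 of 12 lower (2 of 12 after loess or quantile normalization), and a summed signal of 72871 in the mutant and 70221 in the control. Cdh5, the endothelial cadherin, read 10975 in the mutant and 10886 in the control, and Emcn 11349 in the mutant and 10527 in the control. The 3 lower markers, named after their values were seen, were Ptprb at -0.52, Nfatc1 at -0.33 and Tek at -0.015. The 3 measured probe sets of Ptprb ran from -1.10 to -0.43, and the 5 of Nfatc1 from -1.58 to 0.16. The other 9 markers were higher, up to 0.25 for Npr3. Epicardial and mesothelial markers were higher in 10 of 10 measured cases, with summed signals of 10146 in the mutant and 5965 in the control. Upk3b read 2961 in the mutant and 1163 in the control, and Tcf21 3367 in the mutant and 2432 in the control. The mesothelial gene Msln was under the floor on both arrays.

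Blood markers were lower in 4 of 6 measured cases, with summed signals of 8122 in the mutant and 12257 in the control, most of it from Hbb-y. Without Hbb-y the sums were 1515 in the mutant and 2414 in the control. The embryonic globin Hbb-y read 6606 in the mutant and 9843 in the control, and Hba-x 495 in the mutant and 968 in the control. All 4 lower genes, these and Hbb-bh1 and Klf1, are erythroid, while the platelet gene Pf4 was at 0.46 and the macrophage gene Cd68 at 0.79. Cd68 read 162 in the mutant and 93.8 in the control, close to the control floor of 91.3. Alas2, Csf1r and Cx3cr1 were above the floor in the control alone, and Cx3cr1 read 47.8 in the mutant and 226 in the control. The blood genes other than Hbb-y and Hba-x are named after their values were seen. Ptprc and Itga2b, which encode CD45 and CD41, were under the floor on both arrays, as were Epb42 and Adgre1. Myocardial markers were lower in 5 of 10 cases, with a median log2 ratio of -0.069. Their summed signal was 22753 in the mutant and 21155 in the control, but 16001 in the mutant and 17344 in the control without Myl7. Among them Myl7 read 6753 in the mutant and 3811 in the control, and Tnni1 5654 in the mutant and 7257 in the control. Smooth muscle and pericyte markers were lower in 4 of 6 cases (summed signal 9894 in the mutant and 11252 in the control), with Myh11 under the floor on both arrays. There Acta2 read 2937 in the mutant and 3286 in the control, and Pdgfrb 3184 in the mutant and 4072 in the control.

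RNA and spike-in controls differed in part between the arrays. The 3' over 5' signal ratio of Gapdh was 1.64 in the mutant and 2.27 in the control, while that of Actb was 0.998 in the mutant and 0.989 in the control. In addition, the 18 probe sets of the spike-in controls BioB, BioC, BioDn and CreX all read lower in the mutant (mean log2 ratio -0.45). Other spike-in controls were not read. The part of these cell type markers and controls in the matricellular ratios was not tested.

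**Figure D4:**
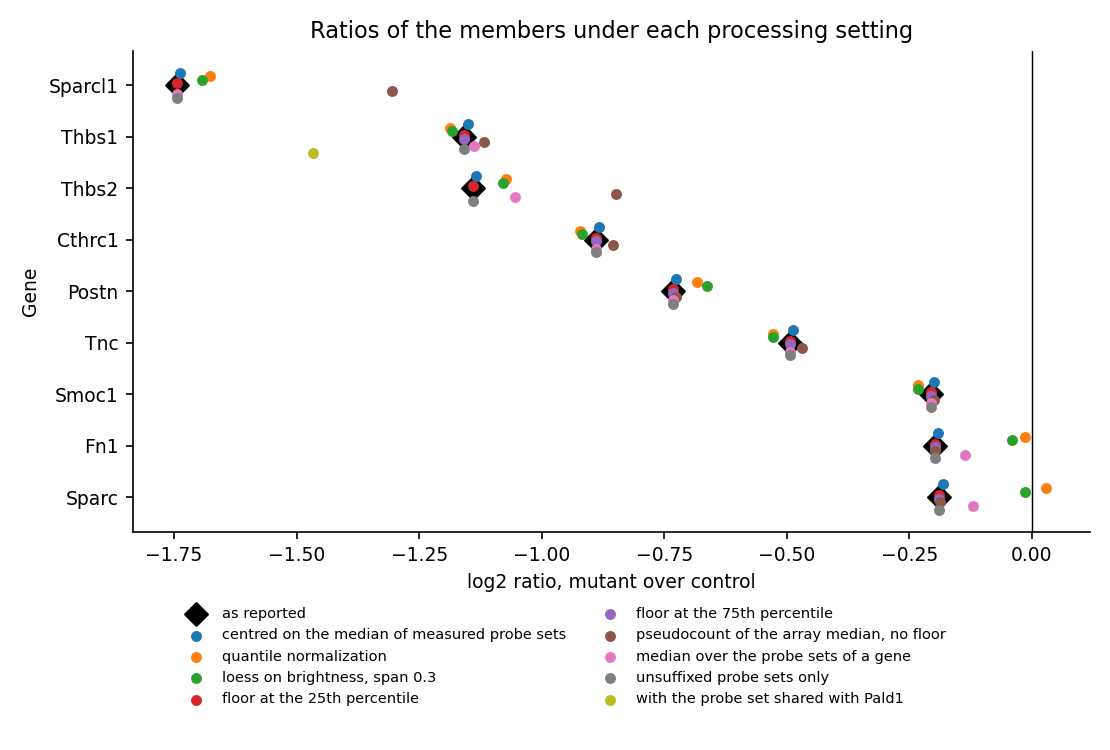
Log2 ratio of mutant over control for each of the 9 genes, ordered from the lowest, with the reported value as a black diamond and each processing alternative as a coloured point. Sparcl1 and Thbs2 move towards 0 with a pseudocount, at -1.30 and -0.85, and Sparc passes 0 at 0.029 after quantile normalization.

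Most of the ratios moved little under the alternatives, as the plot of ratios by processing setting shows. Some alternatives could not change them, since they kept the same probe set and the same scaling. Thbs1 ranged from -1.47, when the probe set shared with Pald1 stood for it, to -1.12. Cthrc1 ranged from -0.92 to -0.85, Postn from -0.73 to -0.66 and Tnc from -0.53 to -0.47. Smoc1 ranged from -0.23 to -0.20.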

How the data were processed

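RNA of the sorted cells was biotin-labelled and read on Affymetrix arrays, 1 mutant and 1 control. The authors deposited intensity values for each probe set, computed in MAS5 according to the submitters' processing notes. This method subtracts mismatch from perfect-match probes and scales each array by a single factor. With 2% trimmed from each end, both deposited columns had a mean of 500. The software settings were not given in the sources used here, nor was a genome build.

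Gene names came from GEO's platform annotation, and 34945 of 45037 probe sets other than array controls named 1 gene. Signals were put on the log2 scale after values under each array's median were set to it. A gene was read from the brightest of its probe sets by mean log2 signal. No test was possible with 1 array per genotype, so genes were counted at 2-fold. Probe error was the pooled SD of log2 ratios between measured probe sets of 1 gene. Precision is limited by the number of arrays.

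The members and lists were chosen with earlier results of these data known. Genes named by rule are all 9 members and the 4 measured genes with the largest absolute ratio in each related list. The 2 brightest of each marker list were also named by rule. Other genes were named after their values were seen. Alternatives covered scaling, floors, probe set choice and fold. The steps were tested on simulated data. Python 3.11.15, numpy 2.4.6 and pandas 2.3.3 were used.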

Additional observations from a re-analysis of the deposited data

How the results depend on the processing

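No paired analysis was possible because each genotype has 1 array, and for the same reason no replicate could be left out. Of 71 member ratios recomputed under the alternatives, 69 kept their sign and moved by less than the probe error. The others were Sparc, at 0.029 after quantile normalization, and Sparcl1, at -1.30 with a pseudocount of the array median. The cause was not tested. Part of the 69 could not have moved. Either other floor, or keeping only probe sets with plain _at names, left each member measured there at its reported value. The median over probe sets can move only genes with several measured probe sets. Sparcl1 and Thbs2 at the 75th percentile floor are not among the 71. With the floor at the 75th percentile, where 7 members were measured, the members' median was -0.49 and 1 was at least 2-fold lower. At 1.5-fold 5 of the 9 were lower and at 3-fold 1 was. The median of the other matricellular genes was -0.069 with the floor at the 25th percentile and -0.15 with a pseudocount. It was -0.27 when each gene took the median over its measured probe sets. With the floor at the 25th percentile, 537 of 13588 measured genes were at least 2-fold lower and 233 higher. With it at the 75th, 34 of 6247 were lower and 12 higher. At 1.5-fold the counts among 10665 measured genes were 705 lower and 466 higher, and at 3-fold 19 and 5. With a pseudocount 25 of 18193 genes were at least 2-fold higher, against 69 of 10665 as reported. The alternative with the probe set shared by Pald1 and Thbs1 was chosen after seeing the data. Signal close to the floor limits Sparcl1 and Thbs2.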
